A study of Xenopus laevis with 4 samples.

Results

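The sites described here are the 5-methylcytosine (m5C) sites in mRNAs of the general transcription machinery of Xenopus laevis embryos. RNA bisulfite sequencing was performed on polyadenylated RNA of wild-type embryos at stage 25 and at stage 0, the stage at which the mRNAs are mainly maternal. About 200 embryos were pooled per stage for 2 libraries, which the authors combined into 1 list of called sites per stage. The study names its replicates both technical and biological, so the kind of replicate is not settled here. The values of the single libraries are not in these lists, so no spread between replicates can be given, and each interval below is a 95% Wilson interval that covers counting error alone. The m5C level of a site is the percentage of C reads among its C and T reads, where C marks a methylated base and T a converted, unmethylated one. Members were chosen by gene name alone, without the subgenome suffix, as the subunits and factors whose symbols begin mainly with polr, gtf, taf, med, brf, snapc, supt, tcea, ell, aff, leo1, ctr9, ints, ctdp or ctdsp (with the digits that the gene families carry). No member site was listed at stage 25, where the whole list held 45 sites in 41 genes, against 192 member sites in 86 genes at stage 0, where the whole list held 16233 sites in 7140 genes. Of all stage 0 sites, 36 (0.222%) were listed again at stage 25. Missing cytosines could be unmethylated, methylated below the calling minimum, or without enough reads, and these cannot be told apart, so the stage 25 result is an absence from the list and not a measured level of 0. All values that follow are from stage 0.

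Transcription of nuclear genes is carried out by RNA polymerases I, II and III, which make ribosomal RNA, mRNA, and tRNA and other small RNAs. Each polymerase is brought to promoters by general transcription factors, and polymerase II is further controlled by the TFIID and Mediator complexes. Elongation factors then carry it through the gene, Integrator ends the transcription of small nuclear RNAs and of many stalled polymerases, and phosphatases reset the tail of its largest subunit. The cleaving frog embryo transcribes little of its genome before the midblastula transition, and it depends on proteins and mRNAs that were stored in the egg.

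The 192 sites held 79442 reads with C or T, of which 22613 were C. Between 20 and 4783 reads covered each member site (median 178), against a median of 146 for the 16041 other sites. In pools of whole embryos, coverage does not tell fewer embryos with an mRNA from less mRNA per embryo. Members had a mean of 2.23 sites per gene, against 2.27 in other methylated genes. In 37 of the 86 genes, 1 site was listed. At least 2 sites were listed in 49 genes (57.0%, against 54.6% of all methylated genes) and at least 5 in 7 genes (8.14%, against 9.73%). Thus, once a gene of the machinery was listed at all, its number of sites was near that of the whole list. Of the 86 names, 83 matched a symbol of the RefSeq annotation (assembly Xenopus_laevis_v10.1), whose coordinates were not used. That list holds 207 coding symbols that fit the same name rule, and 83 of these (40.1%) had a site, against 22.9% of all 22425 coding symbols with a given name. The comparison was not tested, and it does not account for which genes had mRNA in the embryo. The listed share was 87.5% for the phosphatases of the polymerase II tail (7 of 8 symbols), 66.7% for the polymerase III initiation factors and SNAPc (6 of 9), 13 of 26 symbols for the general transcription factors, 30.4% for Mediator (14 of 46) and 25.0% for polymerase II subunits (5 of 20). Symbols were matched by name alone, so a gene listed under another name counts as without a site. The shares of members and of all coding symbols may both be too low, and not to the same extent. For example, polr2b.S counts as without a site, while sites on chromosome 1S were listed as polr2b.L. With polr2b.L, 6 polymerase II genes had sites.

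The levels of the member sites ran from 10%, the calling minimum, to 95.9%, with a median of 20.5% and quartiles of 13.0% and 37.4%. The median of the 16041 other sites was 21.1%, with quartiles of 13.9% and 37.5%. Levels of at least 50% were reached at 29 of the 192 sites (15.1%, against 16.3% of all sites), in 26 genes. Levels under 20% were found at 94 sites (49.0%, against 47.2% of all sites). As a whole, the machinery was therefore close to the background in level, and what follows concerns the differences among its sites. The half-width of the Wilson interval had a median of 5.72 percentage points over the member sites.

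**Figure D1:**
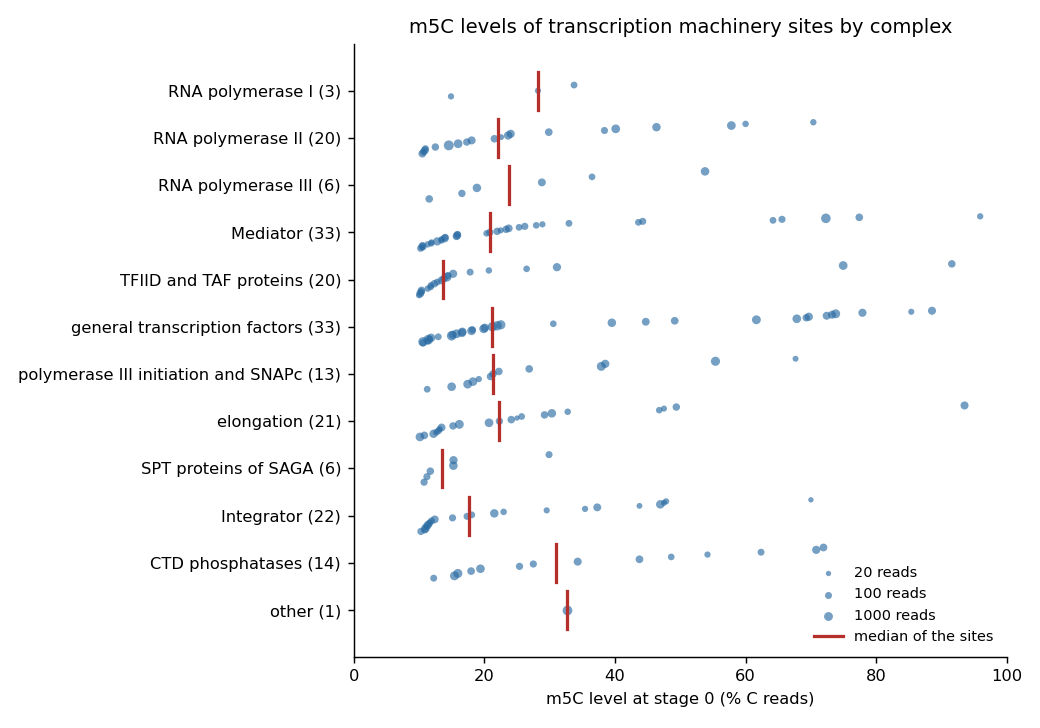
The m5C level of each of the 192 member sites at stage 0 is plotted on the x axis (% C reads), with 1 row per complex and the number of sites in parentheses. Point size follows coverage on a log scale, and red bars mark the median of the sites. Medians lie between 13.5% for the SPT proteins of SAGA and 32.6% for the single site outside the named complexes, while single sites of Mediator and the TAF proteins exceed 90%.

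The subunits of the polymerases were described first. The gene with the most sites was polr2a.L, which encodes the largest subunit of polymerase II and carries the repeated tail that is phosphorylated during transcription. Its 10 sites lay on the plus strand of chromosome 3L between positions 144074019 and 144088388 of the X. laevis v9.2 assembly. All positions are the deposited ones, and since their counting base (0 or 1) was not stated, each may be off by 1 nt. On 112 to 926 reads each, these sites had levels between 10.5% and 38.4% (median 17.02%). No site of polr2a.L was highly methylated, and the highest level, 38.4% (29.9% to 47.6%, 112 reads), was that of its last site. The 3 most downstream sites lay within 101 nt and had levels of 12.5%, 21.5% and 38.4%, in the order of the transcript.

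The other polymerase II subunit genes had fewer sites, and polr2b.L, polr2g.L and polr2e.L reached higher levels. In the mRNA of the second largest subunit, polr2b.L, the levels were 57.8% (54.5% to 61.1%, 844 reads) and 40.1% (36.9% to 43.4%, 865 reads) at 2 sites that were 492 nt apart. In polr2g.L, for a subunit of the stalk of the enzyme, 2 cytosines 1 nt apart had levels of 70.4% on 54 reads and 60.0% on 55 reads, with intervals that overlap. The most deeply covered member site, with 4783 reads, was the single site of polr2i.L, for the small subunit RPB9, where the level was 14.6% (13.6% to 15.6%). Although named as L copies, polr2b.L and polr2i.L were placed on S chromosomes (1S and 8S). The polr2e gene encodes a subunit shared by all 3 polymerases and was listed in both subgenome copies, with levels of 22.6% (31 reads) and 46.4% (576 reads) in polr2e.L and of 10.99% to 23.6% at the 3 sites of polr2e.S.

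Polymerases I and III were represented by 5 genes. In polr1a.L, the largest subunit of polymerase I, the levels were 14.9% on 47 reads and 33.7% on 83 reads, and the single site of polr1b.L had 28.2% on 39 reads. The polymerase III subunit gene polr3e.L had 4 sites on chromosome 9_10L, and in transcript order their levels were 18.9%, 28.8%, 11.6% and 53.8%. All 6 pairs of these sites differed beyond counting error by the test given further below, against 58.0% of all within-gene pairs of the list. The single sites of polr3a.L and polr3g.L had levels of 36.5% and 16.6%.

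Next, the genes with gtf names were examined, most of which encode general transcription factors that assemble at promoters. By name, the group also holds gtf2ird1.S and gtf2ird2b, for TFII-I-like proteins, and a site of gtf2ird1.S at 69.3% counts among its high sites. Among all complexes, this group had the most sites at or above 50%, with 10 of 33 sites (30.3%, against 16.3% of all sites). Its median of 21.2% was nevertheless close to that of the whole list, since 15 sites were under 20% (45.5%, against 47.2% of all sites). Mediator also had 33 sites, of which 5 were at or above 50%. The phosphatases of the polymerase II tail had a similar share of such sites, 28.6% (4 of 14). In gtf2e1.L, which encodes a subunit of TFIIE, 3 sites within 787 nt of chromosome 2L had levels of 15.7% (13.6% to 18.1%, 985 reads), 39.5% (35.8% to 43.4%, 625 reads) and 88.5% (84.8% to 91.5%, 349 reads), increasing in the direction of transcription. The gtf2h genes encode subunits of TFIIH, the factor that opens promoter DNA and also acts in DNA repair. They had 7 sites in 4 genes, of which 5 were at 50% or more, against 16.3% of all sites. TFIIH was singled out after its values were seen. The levels were 77.9% in gtf2h1.L (398 reads), 69.7% in gtf2h3.L (488 reads), 73.2% and 72.4% in gtf2h4.S (325 and 319 reads), and 44.7%, 11.8% and 85.4% in gtf2h2.S (284, 608 and 41 reads). TFIIH subunit genes outside the name rule had no listed site at 50% or more. Their levels were 38.9% in ercc2.L, 19.6% in ccnh.L and 11.9% to 38.6% in cdk7.L.

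TFIIA, which stabilises the binding of TBP to the promoter, had some of the most deeply covered sites. The 3 sites of gtf2a1.S were covered by 2141 to 3608 reads, with levels of 22.0%, 10.6% and 11.4% in transcript order. The 3 sites of gtf2a1.L had 18.0%, 49.1% and 14.99%, and the small subunit gene gtf2a2.S had 61.7% (58.6% to 64.6%, 1017 reads) at its single site. TFIIIC, which recognises the promoters of tRNA genes, was represented by 4 genes. Its gene gtf3c2.L had 5 sites on chromosome 5L, some with low and others with high levels. The levels were 20.1%, 16.6% and 22.5% at 3 of them and 67.8% and 73.8% at the others, at 508 to 1647 reads each. Of the 10 pairs of these sites, 8 differed by the test given further below, against 58.0% of all within-gene pairs of the list. They include 16.6% against 22.5% and 67.8% against 73.8%. Only 155 nt separated the site at 22.5% from that at 73.8%. The sites of gtf3c1.L and gtf3c3.S had levels of 11.6% to 18.2%, and that of gtf3c5.S had 30.6%. In gtf2f2.S, for a TFIIF subunit, the levels were 21.2% (2039 reads) and 19.9% (995 reads), and in gtf2ird2b, for a TFII-I-like protein, the level was 16.6%.

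The TAF proteins bind TBP, most of them within TFIID and some in the polymerase I factor SL1. Low levels prevailed in their mRNAs, with a median of 13.6% over 20 sites and 15 sites under 20% (75%, against 47.2% of all sites). High levels were found in 2 of the 11 genes. In taf11.S, the levels were 15.2% (12.1% to 18.9%, 427 reads) and 91.6% (86.6% to 94.8%, 178 reads) at sites 835 nt apart. In taf8.S, the levels were 31.1% (466 reads), 74.9% (854 reads) and 14.3% (860 reads) in transcript order. By contrast, all sites of taf6.L, taf4.L, taf3.L and taf1b.L were between 10.2% and 14.4%. The levels were 17.8% and 26.5% in taf1a.L and 20.7% at the single site of taf2.S, whereas taf4b.S and both copies of taf5 had single sites at 10% to 12.8%.

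Mediator connects gene-specific activators with polymerase II, and 33 of its sites were listed in 14 genes. Among its genes, med13l.L and med13.L, for subunits of the kinase module, had the most sites. In med13l.L, 7 sites on chromosome 1L had levels of 10.2% to 44.2%, at 59 to 178 reads, and in med13.L, 5 sites on chromosome 2L had levels of 11.9% to 64.2%, at 42 to 126 reads. In the S copy med13l.S, 47 of 49 reads were C at 1 site, a level of 95.9% (86.3% to 98.9%) and the highest of all members, whereas its other sites had 11.3% and 10.5%. In med1, a subunit that contacts nuclear receptors, 4 sites within 2378 nt had levels of 65.6% (122 reads), 43.6% (78 reads), 27.9% (68 reads) and 10.5% (38 reads) in transcript order, so that level and coverage both declined toward the 3′ side. Of the 6 pairs of these sites, 4 differed by the test given below, against 58.0% of all within-gene pairs of the list. In med30.S, the level was 72.3% (70.6% to 73.9%, 2873 reads), the most deeply covered of the high sites, and in med25.L it was 77.4% (71.3% to 82.6%, 208 reads) at the most 3′ of 3 sites, with 10.5% and 12.8% at the others. The remaining 8 genes (med6.L, med8.S, med9.S, med11.S, med22.L, med25.S, med27.L and med29.L) had 10 sites between 13.4% and 28.9%.

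The initiation factors of polymerase III and the SNAPc complex, which serves the promoters of small nuclear RNA genes, had 13 sites. The brf2 gene encodes a TFIIB-like factor of polymerase III. In brf2.S, the most 5′ site had a level of 55.4% (52.8% to 57.9%, 1486 reads) and the 3 others had 17.4%, 18.3% and 14.99% on 747 to 940 reads. The related gene brf1.L had 3 sites with levels of 20.9% to 22.2%, on 189 to 197 reads. Single sites were listed in snapc2.L (67.6%, 34 reads), snapc5.S (37.9%, 1116 reads) and snapc3.L (11.2%, 80 reads).

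Factors that act on the moving polymerase had 21 sites in 13 genes. Their median level was 22.3%, and 9 sites were under 20% (42.9%, against 47.2% of all sites). Of the PAF1 complex genes that fit the name rule, ctr9.L had levels of 10.1%, 12.2% and 20.7%, on 491 to 811 reads. The levels were 49.4% (164 reads) and 13% (100 reads) in ctr9.S, and 46.8% (62 reads) and 22.3% (139 reads) in leo1.L. PAF1 complex genes outside the name rule had sites from 11.3% in wdr61.S to 74.2% in rtf1.L. The genes for SPT5, SPT6, the FACT subunit SPT16, TFIIS and the super elongation complex (supt5h.S, supt6h.L, supt6h.S, supt16h.L, supt16h.S, tcea1.S, aff1.L, aff4.L and aff4.S), had sites between 10.8% and 47.5%. The SPT proteins of the SAGA coactivator were at 10.8% in supt20h.L and at 11.2% to 29.9% at the 5 sites of supt3h.L. A single site with 3770 reads and a level of 32.6% (31.1% to 34.1%) was listed in tceanc2.S, a gene with a TFIIS-like domain that is in none of the named complexes.

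Integrator and the tail phosphatases act near the end of the transcription cycle. Of the 22 sites in genes with ints names, 12 were in the L and S copies of ints3. The 7 sites of ints3.L on chromosome 8L had levels of 21.5%, 37.3%, 12.4%, 46.9%, 11.3%, 10.98% and 11.7% in transcript order, at 60 to 774 reads, so that the low site at 12.4% lay between the highest ones. In ints2.S, 3 of 4 sites were at 43.8% to 47.8% on 32 to 46 reads, and the other was at 11.9% on 109 reads. In ints12.L, the level was 70.0% on only 20 reads (48.1% to 85.5%), with 23.0% and 29.5% at the other sites. The sites of ints9.S and ints10.L were between 10.3% and 17.3%. The phosphatase genes had the highest median of the named complexes, 30.9% over 14 sites. In ctdp1.S, whose product removes phosphate from the polymerase II tail, the levels were 34.3%, 15.9%, 71.9% and 19.4% in transcript order, on 260 to 1254 reads. In the small phosphatase genes, ctdspl2.L had 70.8% (418 reads) and 18.0% (217 reads), ctdspl2.S had 27.5% (120 reads) and 12.2% (98 reads), ctdspl.S had 48.6%, 25.4% and 62.4% on 72 to 130 reads, and the single sites of ctdspl.L and ctdsp2.L had 54.2% and 43.8%.

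**Figure D2:**
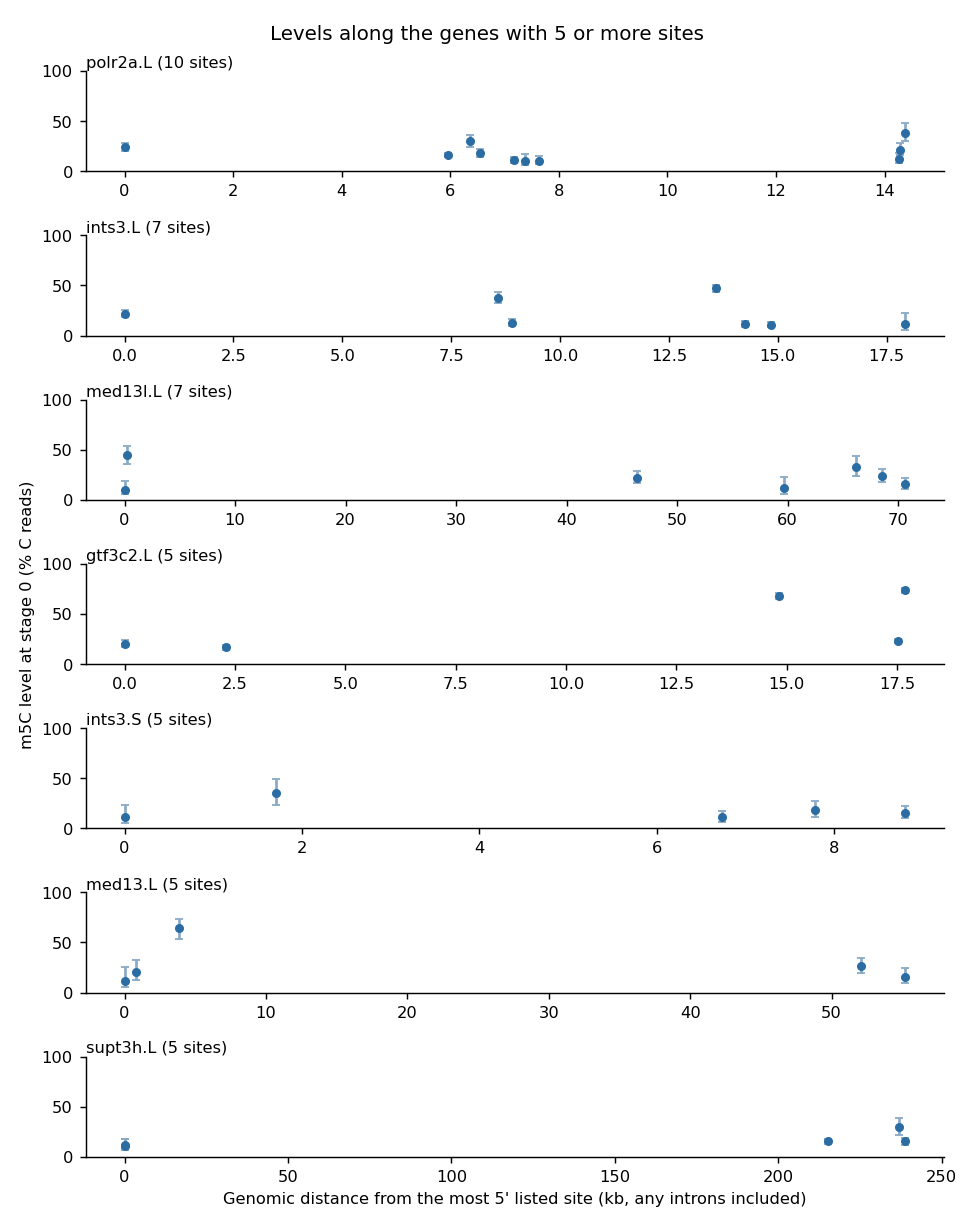
Each panel shows 1 of the 7 genes with 5 or more sites. The x axis gives the genomic distance from the most 5′ listed site in kb, any introns included, and the y axis gives the m5C level at stage 0 (% C reads) with the 95% Wilson interval. The 10 sites of polr2a.L stay under 40%, whereas gtf3c2.L has 2 sites above 65% among 3 below 25%.

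Whether sites of the same mRNA shared a level was then asked. For each pair of sites in 1 gene, a two-sided Fisher's exact test was run on C and T reads, with Benjamini-Hochberg adjustment over all 22085 such pairs of the list. Of the 229 pairs in members, 130 (56.8%) had different levels, against 58.0% of all pairs, so members were near the background. The differing pairs lay in 34 of the 49 genes with at least 2 sites (69.4%, against 74.1% of all such genes), and the more 5′ site had the higher level in 64 pairs and the lower level in 66. The smallest of these differences was 5.09 percentage points. In 14 of these genes, 1 site was at 50% or more and another under 20% (28.6%, against 32.3% of all genes with at least 2 sites), and in 9 genes all sites were under 20% (18.4%, against 12.9%). These shares were not tested. As the test pools the reads of both libraries, it does not include the spread between them.

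The 10 genes with the smallest p-values had differences of 34.9 to 76.4 percentage points. The smallest p was in gtf3c2.L, between the sites at 22.5% and 73.8% (Fisher's exact test, adjusted p = 1.78e-160). It was followed by the pair at 74.9% and 14.3% in taf8.S (Fisher's exact test, adjusted p = 2.03e-149) and by that at 15.7% and 88.5% in gtf2e1.L (adjusted p = 3.70e-134 in the same test). The others named here were brf2.S, taf11.S, ctdp1.S, med25.L, ints3.L and polr3e.L, the last with 18.9% and 53.8% (Fisher's exact test, adjusted p = 1.49e-38). Genes with no differing pair included brf1.L, where the largest difference was 1.28 percentage points, and gtf2h4.S, where both sites were high and differed by 0.817 points although 16694 nt of genome lay between them. A p that misses the threshold does not show that 2 levels are equal. In polr2a.L, 27 of 45 pairs differed, by up to 27.9 points, near the 58.0% of all within-gene pairs of the list. These pairs reuse the same 10 sites and are not independent of each other.

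**Figure D3:**
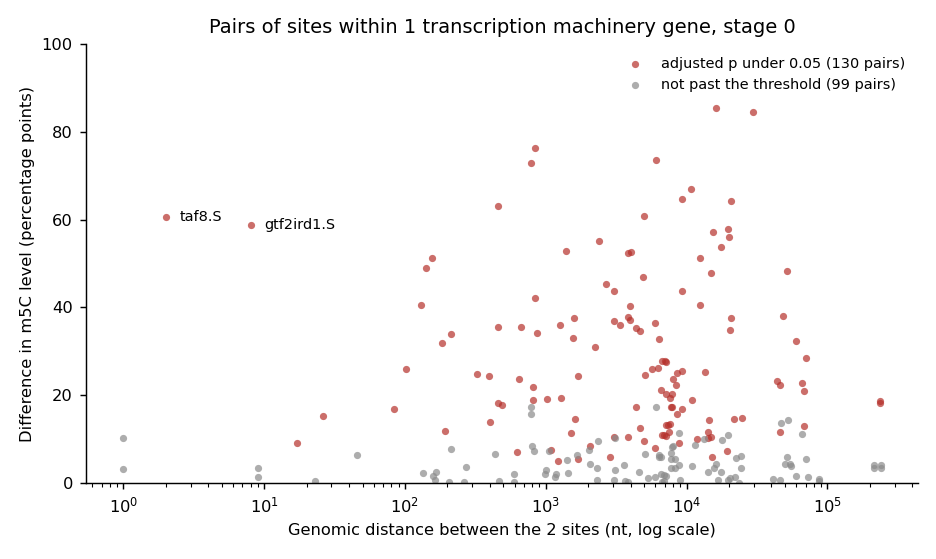
Each point is 1 of the 229 pairs of sites within 1 member gene at stage 0. The x axis gives the genomic distance between the sites in nt on a log scale and the y axis the absolute difference in m5C level in percentage points; red marks the 130 pairs past the threshold of Fisher's exact test. The pairs of taf8.S (2 nt apart) and gtf2ird1.S (8 nt apart) differ by 60.6 and 58.7 points, against a maximum of 85.4 points over all pairs.

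Neighbouring cytosines, which can be read from the same fragments, were compared next. Of 6 member pairs at most 10 nt apart, 2 differed in level, against 62.1% of the 369 such pairs of the list. In taf8.S (chromosome 2S, minus strand), the cytosine at position 55910984 had a level of 74.9% (71.9% to 77.7%) on 854 reads, and that at position 55910982, 2 nt downstream, had 14.3% (12.1% to 16.8%) on 860 reads. In gtf2ird1.S (chromosome 2S, minus strand), the levels were 10.6% (6.63% to 16.5%) on 151 reads at position 83157339 and 69.3% (61.6% to 76.0%) on 153 reads at position 83157331, 8 nt downstream (Fisher's exact test, adjusted p = 2.53e-26). At both places coverage was almost equal at the 2 cytosines while the levels differed by 60.6 and 58.7 points. The 4 other pairs, in brf2.S, polr2g.L, taf6.L and brf1.L, differed by 1.28 to 10.4 points and did not pass the threshold. Since the reads of such neighbours are shared, the test treats as independent what is partly the same molecules.

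The X. laevis genome is allotetraploid, so a gene may be present as an L copy, an S copy or both. Of the 70 member names with a subgenome suffix, 14 (20.0%) had sites in both copies, against 22.0% of all such names. By the suffix of the name, sites were listed in 49 L and 35 S genes, with median levels of 20.9% over 116 L sites and 18.3% over 71 S sites. Without polr2b.L and polr2i.L, which lie on S chromosomes and were left out after seeing the data, the L median was 20.8% over 113 sites in 47 genes. Among RefSeq symbols that fit the name rule, 48 of 118 L symbols (40.7%) and 34 of 88 S symbols (38.6%) had a site. Over all coding symbols, the shares were 23.3% for L and 22.5% for S. Here polr2i.L was counted among the L symbols with a site, and polr2b.S among the S symbols without one. Which site of 1 copy corresponds to which of the other was not analysed here, and reads that fit both copies could have been assigned to either.

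The names with the most sites in both copies were ints3, med13l, brf2 and gtf2a1, followed by ctdp1, which tied at 5 sites with ctr9, med25 and polr2e. In ints3, levels were 10.98% to 46.9% at 7 sites of the L copy and 10.9% to 35.4% at 5 sites of the S copy. In med13l, they were 10.2% to 44.2% at 7 L sites and 10.5% to 95.9% at 3 S sites, so that the only nearly complete site was in the S copy. In brf2, the highest level was 38.5% in the L copy and 55.4% in the S copy, and in gtf2a1 it was 49.1% in L and 22.0% in S. In ctdp1, the single L site had 15.4% (1238 reads), against 15.9% (1254 reads) at the lowest of 4 S sites, with intervals that overlap. Over the 14 names, the ranges of the copies overlapped in 9, and 3 of the others had 1 site per copy, where ranges cannot overlap unless equal. The share of overlapping ranges over all names listed in both copies is not given here, so this count has no background to be read against. Overlap also depends on the number of sites per copy.

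Exactly 1 site in each copy was found for 3 names, and none of the 3 passed the threshold in Fisher's exact test with adjustment over the 183 such names of the list, of which 62.3% did. In supt16h, the level was 24.1% (18.7% to 30.5%, 199 reads) in L and 12.7% (7.02% to 21.8%, 79 reads) in S (adjusted p = 0.0548 in Fisher's exact test). In aff4, it was 13.2% on 38 reads in L and 13.4% on 290 reads in S, and in taf5 it was 12.4% on 170 reads in L and 10% on 40 reads in S. The unadjusted p was under 0.05 for supt16h alone (0.0344, Fisher's exact test).

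**Figure D4:**
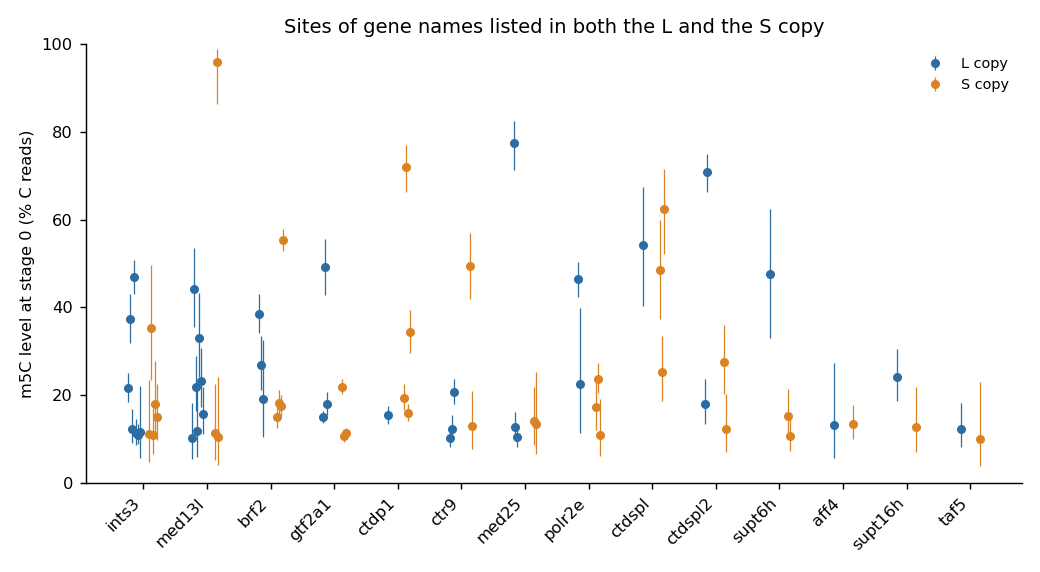
The m5C level at stage 0 (% C reads, y axis) is given for each site of the 14 gene names (x axis) that were listed in both copies, with the L copy in blue, the S copy in orange and 95% Wilson intervals. The site at 95.9% in med13l is in the S copy and that at 77.4% in med25 is in the L copy.

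Last, other genes of the transcription cycle that the name rule does not take in were looked up from a list of 67 names, which holds further subunits of the PAF1, NELF, TFIIH, P-TEFb and SAGA complexes and associated factors. Sites were listed for 34 of these names, with 100 sites in 40 genes at stage 0 and none at stage 25. Of the 63 names that are also coding names of the RefSeq list, 32 (50.8%) had a site in either copy, against 28.7% of all coding names with copies joined. Their median level was 22.6%, and 13 sites (13.0%, against 16.3% of all sites) were at 50% or more. Genes with 4 sites included nabp2.L (4 sites, 12% to 31.1%), scaf8.L (4 sites, 10.9% to 94.8%) and bdp1.S (4 sites, 16.4% to 45.6%). The bdp1 gene encodes a TFIIIB subunit that acts with BRF1. In scaf8.L, whose product binds the polymerase II tail, 582 of 614 reads were C at 1 site (94.8%), while its other sites were between 10.9% and 12.8%.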

How the data were processed

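Per the authors' methods and the submitters' processing notes, reads were demultiplexed with bcl2fastq 2.17 and trimmed with cutadapt and Trimmomatic. They were mapped with HISAT2 to the converted genome and, where left over, with Bowtie2 to the converted transcriptome (X. laevis v9.2). The HISAT2 version is 2.10 in the processing notes and is printed differently in the study's reporting summary. Calls required minimum coverage, level, C reads and signal ratio. Reads with many remaining C were removed, which lowers background and also loses reads with several true m5C sites. As deposited, coverage is a count of C plus T reads, without normalization and with both libraries combined. The level was deposited as a fraction and is printed here as a percent. The authors also deposited a p-value for each call, which was not used. Coverage times level gave whole C reads at every site (within 0.0001 reads). At least 20 reads covered each site.

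The stage 25 titles carry the prefix XT, but their organism label is X. laevis. Complexes were assigned by gene name. The members and gene lists were chosen with earlier results of these data known. Named were, per complex, the 3 genes with the most sites and the highest lower Wilson bound, and over all members the 10 highest lower bounds, the 5 highest coverages, the 10 genes with the smallest pair p, and the 5 names with the most sites in both copies. Others are given to describe the remaining genes. Some results of the named genes are not reported here. Fisher's exact test used a threshold of 0.05 after Benjamini-Hochberg adjustment across all pairs of the list, and was tested on simulated data. Alternatives were other minimum values of coverage and level, assembled chromosomes only, named complexes only, Bonferroni adjustment, non-overlap of intervals, adjacent sites only, and other averages of level. No genome of the v9.2 build was used, so motifs and the part of the transcript in which a site lies were not analysed here, and no flanking sequence is shown. Tests were run with scipy 1.17.1 and pandas 2.3.3 (numpy 2.4.6) under Python 3.11.15, and plots were drawn with matplotlib 3.10.9.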

Additional observations from a re-analysis of the deposited data

How the results depend on the processing

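No paired analysis was possible because both libraries of a stage were merged into 1 value per site before deposit, which also prevented fits without a replicate. Under a level minimum of 20%, 98 member sites remained, their median level was 36.9%, 32 within-gene pairs differed, and 3 names had 1 site per copy with different levels (ctdspl2, ctr9 and gtf2a1). Under a level minimum of 30%, 59 sites in 43 genes remained, the median level was 49.4%, 10 within-gene pairs differed, and 1 name did so between copies (brf2). These follow from the construction, since low sites are left out and other names then have 1 site per copy. The share of member pairs that differed was 56.1% under the 20% minimum and 55.6% under the 30% minimum, against 56.8% in the main setting. Pooled over reads, the level was 28.5%, where deep sites weigh more. Of the 130 differing pairs, 71 passed Bonferroni adjustment, and the share of all pairs that did so is not given here. When only adjacent sites were compared, which leaves fewer pairs, 62 of 106 member pairs differed (58.5%, against 58.2% of all such pairs). The other 35 values of the main results moved by at most 1.5 times (128 sites under a coverage minimum of 100 reads), or for the median level by less than 5.72 points, and no site of the machinery was listed at stage 25 under any alternative. As no alternative adds sites to a list, the stage 25 count was bound to stay at 0. The 10 pairs with the smallest p, one per gene, kept their direction and call in all 53 values computed, with a largest adjusted p of 2.75e-35 (Fisher's exact test, Bonferroni). Each such pair keeps the same reads under every alternative, so its direction could not change. As the pairs were picked for their small p on these reads, their kept call is no separate support. A window of 20 or 50 nt, chosen after seeing the data, gave 3 of 7 and 4 of 10 neighbouring pairs with different levels. The share over all pairs of the list at these windows is not given here, so these counts have no background to be read against. Under a coverage minimum of 100 reads, no name had 1 site per copy, so that comparison gave no value. Depth limits 24 member sites with under 50 reads.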

Other observations

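The suffix of the gene name and the chromosome disagreed for 2 of the 82 member genes that have a suffix and lie on an assembled chromosome. The sites of polr2b.L were deposited on chromosome 1S and that of polr2i.L on chromosome 8S. The later RefSeq list holds the symbols polr2b.S and polr2i.S, next to a separate symbol polr2i.L. Such disagreement was found at 2.10% of all stage 0 sites with a suffix on assembled chromosomes. That share counts sites, whereas the member figure counts genes. Neither gene has sites under both suffixes, so neither is among the names compared between copies, but both count as L genes wherever genes were split by suffix.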
